A study of Mus musculus with 14 samples.

Results

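Stc1, Stc2, Ak4, Ndrg1, Ankrd37 and Higd1a are 6 mouse genes widely used as markers of the response to low oxygen. They were chosen by symbol and matched to Ensembl identifiers, and are 6 of the 52636 genes in the deposited expression table. All 6 passed the filter on low values, as did 16157 genes in all. RNA sequencing had been done on bulk RNA of transformed mouse embryonic fibroblasts (fibroblasts from mouse embryos that divide without limit) in which naked mole rat (NMR) TRF1 stands in place of the mouse protein. TRF1 binds the double-stranded repeats of telomeres. There were 14 libraries, 2 (A and B) in each of 7 groups. The GLAD mutant (Glu69Lys, Val70Ala, Ala75Thr), the TIN mutant (Ala105Thr) and the double mutant with both sets of substitutions were each grown at 1% oxygen (hypoxia) and at atmospheric oxygen (normoxia). Wild-type (WT) NMR TRF1 was grown at normoxia, and a hypoxia group of it was not analysed here. All groups share the fibroblast background, the replaced TRF1 and a medium with 10% fetal calf serum. The labels do not say that A and B were separate cultures, so each p-value reflects only library-to-library spread, possibly technical. A mutant may be 1 cell line, and line and substitution cannot then be told apart. The library names of the WT pair hold the word mouse, whereas their titles and genotype give NMR TRF1, and which TRF1 they carried was not tested.

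When oxygen is scarce, prolyl hydroxylases stop marking the alpha subunits of the hypoxia-inducible factors (HIF), which then escape VHL-mediated degradation, pair with ARNT and bind short hypoxia response elements near their target genes. In fibroblasts this programme is known for raising glycolysis, lowering oxygen use by mitochondria and releasing secreted factors. The 6 genes fall into 3 roles. Stc1 and Stc2 encode the stanniocalcins, secreted glycoproteins first described in fish as calcium-lowering hormones and known in mammals as inhibitors of the protease PAPP-A. Ak4 encodes an adenylate kinase of the mitochondrial matrix, and Higd1a a small protein of the inner mitochondrial membrane that associates with the respiratory chain. Ndrg1 encodes a cytoplasmic stress-response protein linked to growth arrest and differentiation, and Ankrd37 a small ankyrin-repeat protein known as a direct HIF1 target.

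The genes lie on 6 different chromosomes of GRCm38, by the GENCODE M21 annotation. Stc1 (ENSMUSG00000014813) is at chr14:69029238-69041804 on the plus strand and Stc2 (ENSMUSG00000020303) at chr11:31357307-31370074 on the minus strand. Ak4 (ENSMUSG00000028527) is at chr4:101419277-101466995 on the plus strand. Ndrg1 (ENSMUSG00000005125) is at chr15:66929318-66969640, Ankrd37 (ENSMUSG00000050914) at chr8:45996902-46005707 and Higd1a (ENSMUSG00000038412) at chr9:121848563-121858362, all on the minus strand. Because the 6 genes are described as HIF markers, the promoters of those matched in the RefSeq promoter table are shown, each running from 250 bases before to 50 bases after a listed start on the strand of the gene, 5′ to 3′. The table matched 4 of the 6 members; Stc1 and Ndrg1 are named only. Capitals mark every match, on either strand, to ACGTG or GCGTG, the core letters of a hypoxia response element. The windows are chr11:31370012-31370311 (minus) for Stc2, chr4:101419039-101419338 (plus, the nearest of 4 listed starts to the annotated gene start) for Ak4, chr8:45999801-46000100 (minus) for Ankrd37 and chr9:121857747-121858046 (minus) for Higd1a, in GRCm38.p6.
Stc2: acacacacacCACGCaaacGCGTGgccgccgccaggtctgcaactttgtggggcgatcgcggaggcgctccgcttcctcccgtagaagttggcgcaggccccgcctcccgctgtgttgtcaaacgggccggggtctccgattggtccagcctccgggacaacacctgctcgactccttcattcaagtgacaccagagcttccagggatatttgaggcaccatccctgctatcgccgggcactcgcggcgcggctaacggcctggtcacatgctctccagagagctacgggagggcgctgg
Ak4: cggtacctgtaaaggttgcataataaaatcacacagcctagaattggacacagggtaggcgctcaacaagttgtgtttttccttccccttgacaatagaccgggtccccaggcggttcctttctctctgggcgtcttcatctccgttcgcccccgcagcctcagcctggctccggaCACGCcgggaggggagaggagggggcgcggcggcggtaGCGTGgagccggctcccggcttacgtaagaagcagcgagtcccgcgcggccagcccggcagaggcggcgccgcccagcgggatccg
Ankrd37: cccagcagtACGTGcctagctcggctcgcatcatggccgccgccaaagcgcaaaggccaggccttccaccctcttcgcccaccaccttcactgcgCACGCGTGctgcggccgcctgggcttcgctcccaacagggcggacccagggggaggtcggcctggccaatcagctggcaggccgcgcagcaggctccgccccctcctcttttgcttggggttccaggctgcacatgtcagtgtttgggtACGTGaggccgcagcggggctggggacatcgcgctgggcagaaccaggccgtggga
Higd1a: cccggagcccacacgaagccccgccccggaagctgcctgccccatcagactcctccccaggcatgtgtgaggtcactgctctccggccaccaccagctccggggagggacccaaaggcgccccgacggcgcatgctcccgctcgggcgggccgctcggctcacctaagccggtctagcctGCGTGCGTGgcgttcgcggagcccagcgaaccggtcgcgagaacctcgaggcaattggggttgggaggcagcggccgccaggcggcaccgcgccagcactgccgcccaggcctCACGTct
Ankrd37 held 4 matches, among them 2 to ACGTG, and a pair of its GCGTG matches, 1 on each strand, overlap. Its listed start, base 45999850, lies inside the annotated gene, which begins at base 46005707 on the minus strand. The listed start of Higd1a, base 121857796, likewise lies inside its gene, which begins at base 121858362. Those of Stc2 and Ak4 lie nearer to the annotated starts. Higd1a held 3 matches, of which 2 overlap, and Stc2 and Ak4 held 2 each. Of 32851 RefSeq mouse promoters of this length, 43.8% held at least 1 match to either motif, 19.6% held ACGTG, 32.4% held GCGTG and 20.6% held 2 or more matches. The matches describe the letters of these windows only: Stc2 and Ak4, with 2 each, had the smallest and the largest mean hypoxia change of the 6 genes.

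In 5 of the 6 genes every hypoxia library stood above every normoxia library in all 3 mutants, with fitted folds of 5.96 (Stc1 in GLAD) to 35.2 (Stc1 in TIN). Stc2 was the exception: its level was higher in hypoxia in the GLAD mutant and did not pass the test in the TIN or double mutant. Levels are the deposited CPM, each library's reads brought to 1 common total, after TMM (trimmed mean of M values) scaling. Log2 changes and their ± standard errors come from limma on log2(scaled CPM + 0.5), a scale that understates changes of low genes. Adjusted p is Benjamini-Hochberg over the 16157 genes, with 0.05 as the threshold. In the GLAD mutant 6 of 6 genes rose, where 22.9% of all genes tested were called higher. In the TIN mutant 5 of 6 rose against 26.9% of all genes, and in the double mutant 5 of 6 against 26.2%. Over the mean of the 3 mutants 6 of 6 rose against 31.6%. The 6 genes were chosen with earlier results of these data known, so these counts are descriptions and not an independent test. The median log2 change of the 6 genes was 3.24 in GLAD, 4.12 in TIN and 2.99 in double mutant cells, where the median over all genes was -0.02, 0.01 and -0.04. In bulk RNA, fewer cells that express a gene and less of its RNA per cell cannot be told apart.

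**Figure D1:**
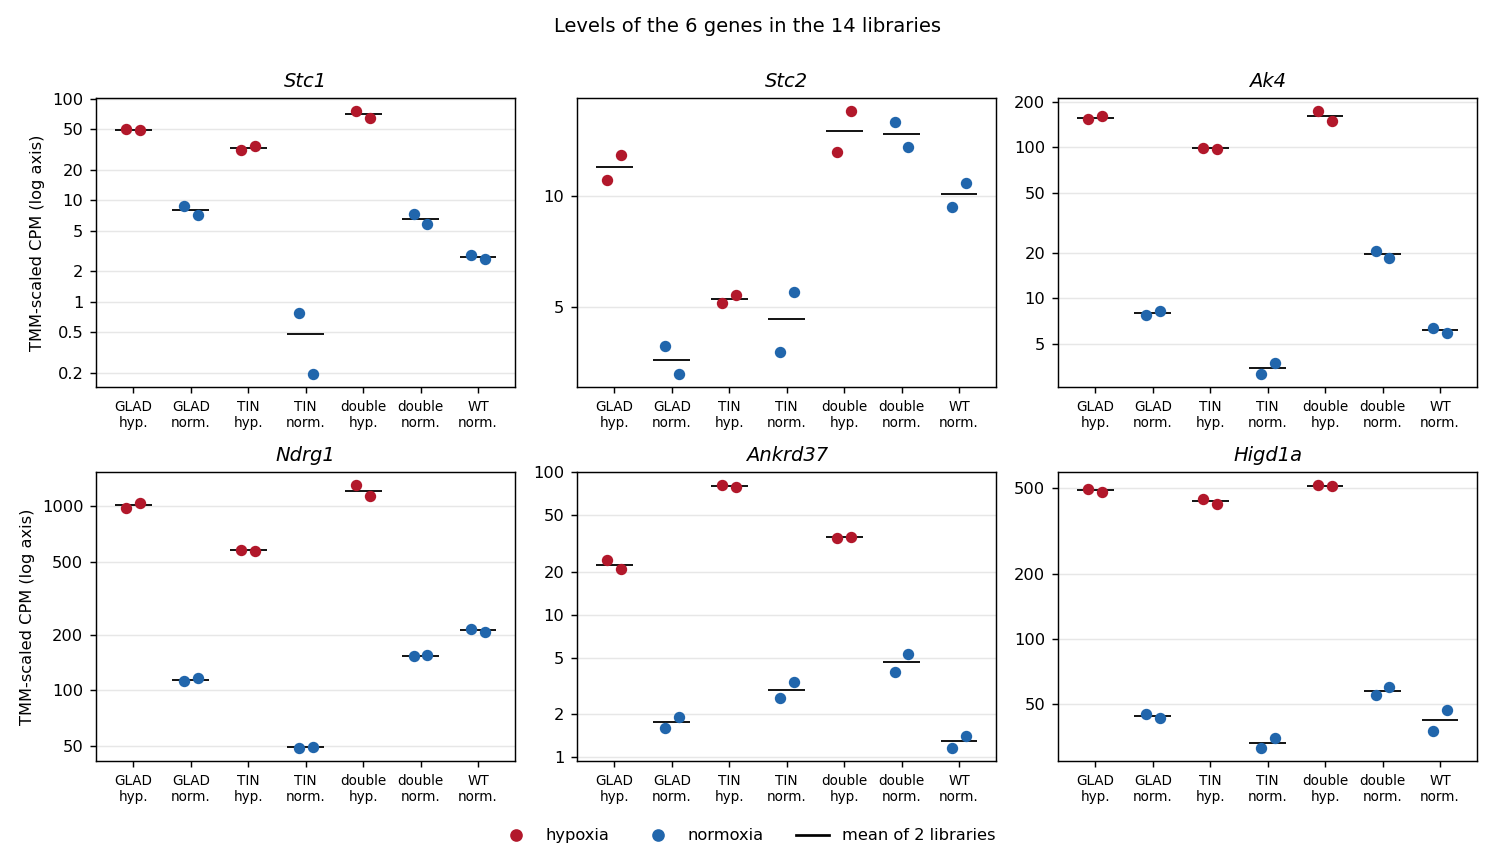
TMM-scaled CPM (log axis, a separate scale per gene) of the 6 genes in each library, by group, with hypoxia left of normoxia for each mutant and wild type last. Points are single libraries and the lines are means of 2 libraries; red hypoxia points lie above the blue points in every panel except Stc2, where hypoxia and normoxia overlap in the TIN and in the double mutant.

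Stc1 had 50.7 and 49.1 scaled CPM in GLAD hypoxia, against 8.85 and 7.17 in GLAD normoxia. In TIN cells it had 31.1 and 34.2 scaled CPM in hypoxia, against 0.776 and 0.194 in normoxia. The double mutant gave 75.4 and 65.1 scaled CPM in hypoxia, against 7.29 and 5.80 in normoxia, and the WT normoxia libraries gave 2.92 and 2.63. The 6 hypoxia libraries were all above the 8 normoxia libraries, and the TIN normoxia pair was the lowest of all. Stc1 rose by 2.57 ± 0.21 on the log2 scale in GLAD (adjusted p = 1.8e-08), 5.14 ± 0.21 in TIN (1.1e-12; 4.53 to 6.01 over the alternatives) and 3.33 ± 0.21 in double mutant cells (3.5e-10). The TIN change ranked 3 among the 16157 genes, counted from the highest, against rank 86 in GLAD and 44 in the double mutant. The low TIN normoxia level rested on about 11 reads in library A and 2 in library B, as estimated from the steps of the CPM values, and the second is below the 3 reads that a count of 0 allows. Summed over both libraries the estimate was 855 reads in TIN hypoxia and 13 in TIN normoxia, a depth-corrected ratio of 67.6 with an exact 95% interval of 39.3 to 127.6 that covers counting error only. In library B alone, 471 reads against 2 gave a ratio of 210.3 with an interval of 57.9 to 1742.

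From high to low, Stc1 ran from double to GLAD to TIN mutants in hypoxia, then from GLAD to double mutants to WT to TIN in normoxia. The limma test uses a spread pooled over all 7 groups. By it the double and GLAD mutants were not called different in hypoxia (log2 difference 0.49 ± 0.21, adjusted p = 0.0688) or in normoxia (-0.27 ± 0.21, 0.329). Each of the other neighbours in that order differed. In hypoxia both double mutant libraries stood above both GLAD libraries. The hypoxia difference between double and GLAD passed with only the groups compared (adjusted p = 1.1e-05), a pseudocount of 1 CPM (0.0279), the length and GC trend removed (0.0331), and without WT library A or B (0.0361 each), TIN normoxia library A (0.0141) or TIN normoxia library B (0.0133). The call between the TIN and GLAD mutants in hypoxia (-0.61 ± 0.21, adjusted p = 0.0169) was lost with a trend on transcript length and GC removed (-0.11, adjusted p = 0.669). It was also lost without TIN hypoxia library A (adjusted p = 0.0976), without either GLAD hypoxia library (0.0818 without A, 0.0622 without B), with a pseudocount of 0.1 CPM (0.0971) and with no filter on low values (0.0766). Expressed as the fold between the highest and the lowest mutant, Stc1 spanned 2.15 in hypoxia and 16.5 in normoxia. The second of these rests on the few reads of TIN normoxia and was 41.3 without TIN normoxia library A and 10.3 without library B. The log2 difference between double and TIN mutants in hypoxia, 1.09, was 0.66 (adjusted p = 0.0088) with the length and GC trend removed.

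Stc2, the other stanniocalcin, had 11.0 and 12.8 scaled CPM in GLAD hypoxia, against 3.91 and 3.29 in GLAD normoxia. TIN cells gave 5.11 and 5.37 in hypoxia, against 3.78 and 5.47 in normoxia. Double mutant cells gave 13.1 and 16.9 in hypoxia, against 15.8 and 13.6 in normoxia, and the WT normoxia libraries gave 9.32 and 10.8. The hypoxia and normoxia libraries were separate only in GLAD cells and overlapped in TIN and double mutant cells. Stc2 rose by 1.60 ± 0.18 on the log2 scale in GLAD (adjusted p = 1.1e-06). The change was 0.18 ± 0.18 in TIN (adjusted p = 0.405, 95% interval -0.19 to 0.56) and 0.02 ± 0.18 in double mutant cells (0.927, -0.35 to 0.40). The response was smaller in TIN than in GLAD by a log2 difference of -1.42 ± 0.25 (adjusted p = 4.7e-04), and smaller in double mutant than in GLAD cells by -1.58 ± 0.25 (3.9e-04). Over the mean of the 3 mutants the change was 0.60 ± 0.10 (adjusted p = 5.3e-05), rank 1962 of 16157, while the other members ranked 10 to 32. Neighbouring Stc2 levels in the order of the 7 groups differed at 1 place only, between WT normoxia and TIN hypoxia: TIN hypoxia averaged 5.24 ± 0.18 and WT normoxia 10.1 ± 1.06 scaled CPM (SD, n = 2 each; limma adjusted p = 3.4e-04).

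Among the mitochondrial members, Ak4 had 154.0 and 161 scaled CPM in GLAD hypoxia, against 7.72 and 8.20 in GLAD normoxia. TIN cells gave 99.9 and 97.6 in hypoxia, against 3.15 and 3.73 in normoxia. Double mutant cells gave 174 and 149.8 in hypoxia, against 20.8 and 18.6 in normoxia, and the WT normoxia libraries gave 6.40 and 5.92. No hypoxia library came near the normoxia range, and the normoxia level of the double mutant was the highest of the 4 normoxia groups. Ak4 rose by 4.22 ± 0.11 in GLAD (adjusted p = 2.6e-15), 4.66 ± 0.11 in TIN (3.7e-16) and 3.01 ± 0.11 in double mutant cells (2.7e-13), on the log2 scale. With a mean change of 3.96 ± 0.06 it had the highest rank of the 6 genes, 10 of 16157. In hypoxia the double and GLAD mutants did not differ (0.03 ± 0.11, adjusted p = 0.827), and every other neighbouring pair in the order of its 7 levels did.

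Higd1a had 494 and 482 scaled CPM in GLAD hypoxia, against 45.3 and 43.2 in GLAD normoxia. TIN cells gave 445 and 423 in hypoxia, against 31.4 and 34.8 in normoxia. Double mutant cells gave 516 and 512 in hypoxia, against 55.4 and 60.4 in normoxia, and the WT normoxia libraries gave 37.7 and 47.0. The 6 hypoxia libraries lay close together: the highest mutant mean was 1.18 times the lowest, the narrowest spread among the 6 genes. In normoxia the corresponding fold was 1.75. Higd1a rose by 3.45 ± 0.09 in GLAD (adjusted p = 2.8e-15), 3.69 ± 0.09 in TIN (9.2e-16) and 3.14 ± 0.09 in double mutant cells (1.9e-14), on the log2 scale. Neither the double and GLAD mutants (0.07 ± 0.09, adjusted p = 0.537) nor the TIN and GLAD mutants (-0.17 ± 0.09, 0.115) were called different in hypoxia by the pooled spread, and the same held for GLAD and WT in normoxia (0.07 ± 0.09, 0.531). The TIN and GLAD difference in hypoxia passed with the length and GC trend removed (-0.25, adjusted p = 0.0084), with only the groups compared (0.0149) and without WT library A (0.0242) or B (0.0243).

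Ndrg1, the stress-response gene, had 983 and 1046 scaled CPM in GLAD hypoxia, against 113 and 117 in GLAD normoxia. TIN cells gave 578 and 574 in hypoxia, against 48.7 and 49.5 in normoxia. Double mutant cells gave 1302 and 1133 in hypoxia, against 154.0 and 155 in normoxia, and the WT normoxia libraries gave 216 and 208. Library pairs agreed closely and no 2 groups overlapped. Ndrg1 rose by 3.14 ± 0.07 in GLAD (adjusted p = 1.2e-15), 3.54 ± 0.07 in TIN (1.5e-16) and 2.97 ± 0.07 in double mutant cells (4.8e-15), on the log2 scale. Each neighbouring pair in the order of its 7 levels differed, with TIN lowest within each oxygen level. Per kilobase of exon, Ndrg1 and Higd1a were the highest members in hypoxia, with 87.4 to 185 scaled CPM per kb for Ndrg1 and 143 to 169 for Higd1a. The antisense gene Gm17035 shares 419 exon bases with Ndrg1 and stood at 24.8% to 28.9% of its level in every library. It rose by 3.28 ± 0.05 in hypoxia over the mean of the 3 mutants. Gm2895, also on the opposite strand, shares 137 exon bases with Ndrg1 and stood at 2.47% to 5.27% of its level. Its mean hypoxia change was 2.91 ± 0.135. The strand setting of the counting was not given in the sources used here, so reads of Ndrg1 and these overlapping genes cannot be told apart.

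Ankrd37 had 24.0 and 20.9 scaled CPM in GLAD hypoxia, against 1.61 and 1.91 in GLAD normoxia. TIN cells gave 81.3 and 78.5 in hypoxia, against 2.62 and 3.34 in normoxia. Double mutant cells gave 34.8 and 35.3 in hypoxia, against 3.99 and 5.29 in normoxia, and the WT normoxia libraries gave 1.16 and 1.42. It was the member for which TIN hypoxia was the highest of the 7 groups. Ankrd37 rose by 3.34 ± 0.16 in GLAD (adjusted p = 1.6e-11), 4.54 ± 0.16 in TIN (1.8e-13) and 2.80 ± 0.16 in double mutant cells (1.3e-10), on the log2 scale. In the order of its 7 levels only the lowest neighbours, GLAD and WT in normoxia, did not differ (0.34 ± 0.16, adjusted p = 0.0825). Lrp2bp, a gene on the opposite strand, shares 349 exon bases with Ankrd37 and stood at 34.3% to 55.1% of its level, with a mean hypoxia change of 3.21 ± 0.11. As with Ndrg1, reads of these overlapping genes cannot be told apart. Ufsp2, also on the opposite strand, shares 57 exon bases with Ankrd37. It had 45.6 to 56.4 scaled CPM in hypoxia and 35.8 to 48.9 in normoxia, and stood at 59.3% to 3410% of the Ankrd37 level, with a mean hypoxia change of 0.22 ± 0.05 (adjusted p = 0.0014). Stc1 and Higd1a also overlap antisense genes, Gm41192 over 229 exon bases and Gm47112 over 683, which stood at no more than 17.3% and 1.08% of the member's level. The mean hypoxia change was 2.73 ± 0.155 for Gm41192 and 1.375 ± 0.131 for Gm47112. Reads of these pairs cannot be told apart either.

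**Figure D2:**
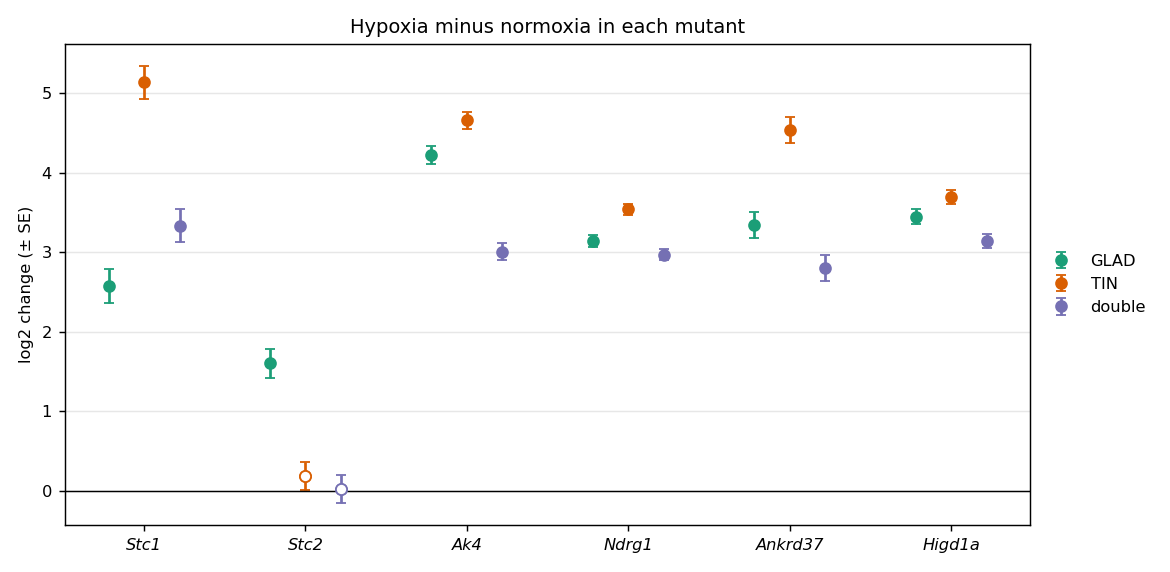
Log2 change (hypoxia minus normoxia) of each gene in the GLAD, TIN and double mutants, with bars for the standard error of the limma model; open points did not pass adjusted p 0.05. TIN is the highest of the 3 for Stc1, Ak4, Ndrg1, Ankrd37 and Higd1a, while for Stc2 GLAD stands at 1.60 and the other points lie near 0.

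The size of the hypoxia response was then compared between mutants, as the difference of the log2 changes. Of the 6 genes, 4 responded more and 1 less in TIN than in GLAD cells, where 16.8% of all genes were called higher and 17.1% lower. Stc1 had the largest such difference (2.56 ± 0.29, adjusted p = 8.5e-06), followed by Ankrd37 (1.20 ± 0.23, 8.1e-04), Ak4 (0.43 ± 0.15, 0.0355) and Ndrg1 (0.40 ± 0.10, 0.0064). Stc2 had the lower response in TIN given above, and Higd1a differed by 0.25 ± 0.13 (adjusted p = 0.147). In Stc1 the larger TIN response went with the low TIN normoxia level, since its TIN level was below the GLAD level at both oxygen levels. The Stc1 difference was 2.02 with a pseudocount of 1 CPM and 3.38 with 0.1 CPM. In Ankrd37 the larger response went with a higher TIN level in hypoxia (1.81 ± 0.16 over GLAD, adjusted p = 3.6e-08). The Ak4 call was lost without any of 6 single libraries (adjusted p = 0.118 and 0.0689 without GLAD hypoxia A and B, 0.108 without GLAD normoxia B, 0.109 and 0.0796 without TIN hypoxia A and B, 0.144 without TIN normoxia A), with a pseudocount of 1 CPM (0.0773) and with no filter on low values (0.0633). The Ndrg1 call was lost with a trend on transcript length and GC removed (0.15, adjusted p = 0.318), and Higd1a passed without WT library A (0.0314) or B (0.0316) and with only the groups compared (0.0175).

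The double mutant responded less than TIN in 5 of 6 genes, where 22.4% of all genes were called lower. The differences were -1.80 ± 0.29 for Stc1 (adjusted p = 1.2e-04), -1.74 ± 0.23 for Ankrd37 (1.5e-05), -1.65 ± 0.15 for Ak4 (3.1e-07), -0.57 ± 0.10 for Ndrg1 (3.0e-04) and -0.55 ± 0.13 for Higd1a (0.0022). The Stc1 difference was -1.28 with a pseudocount of 1 CPM and -2.60 with 0.1 CPM, and the Ndrg1 difference -0.34 (adjusted p = 0.0172) with the length and GC trend removed. Stc2, which did not pass the hypoxia test in either mutant, differed by -0.16 ± 0.25 (adjusted p = 0.637). Set against GLAD, the double mutant responded less in 2 of 6 genes, Stc2 and Ak4 (-1.22 ± 0.15, adjusted p = 4.1e-05), where 7.96% of all genes were called lower. The other members were not called: Stc1 differed by 0.76 ± 0.29 (adjusted p = 0.0955), Ndrg1 by -0.17 ± 0.10 (0.307), Ankrd37 by -0.54 ± 0.23 (0.131) and Higd1a by -0.31 ± 0.13 (0.122). Stc1 passed as higher, and the count of members higher became 1 in place of 0 (background 6.75%), with only the groups compared (adjusted p = 0.0044), with a pseudocount of 1 CPM (0.0433), and without WT library A (0.0434), WT library B (0.0434), TIN normoxia library A (0.0221) or TIN normoxia library B (0.0212). Higd1a passed as lower with only the groups compared (0.0233) and without WT library A (0.0153) or B (0.0154).

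In normoxia, each mutant differed from WT in 4 to 6 of the 6 genes, in different directions. Of the 16157 genes tested, 8952 were called either way in GLAD, 9726 in TIN and 9189 in double mutant cells. With only the groups compared, the counts were 6495 in GLAD, 7411 in TIN and 6807 in double mutant cells. TIN cells were lower than WT in 5 of 6 genes, where 30.5% of all genes were called lower, and higher in Ankrd37, where 29.7% were called higher. The TIN differences were -2.10 ± 0.07 for Ndrg1 (adjusted p = 2.6e-14), -1.80 ± 0.21 for Stc1 (7.3e-07), -1.06 ± 0.18 for Stc2 (5.9e-05), -0.76 ± 0.11 for Ak4 (8.6e-06), -0.34 ± 0.09 for Higd1a (0.0033) and 0.96 ± 0.16 for Ankrd37 (6.0e-05). The Higd1a call was lost without TIN normoxia library A (adjusted p = 0.0540) and with only the groups compared (0.0949), and the difference was -0.19 (0.0475) without WT library B. The Stc1 difference was -2.50 with a pseudocount of 0.1 CPM. Double mutant cells were higher than WT in 5 of 6 genes, where 29.3% of all genes were called higher, and lower in Ndrg1, where 27.5% were called lower. Their differences were 1.60 ± 0.11 for Ak4 (adjusted p = 8.4e-10), 1.52 ± 0.16 for Ankrd37 (3.9e-07), 1.10 ± 0.21 for Stc1 (2.3e-04), 0.52 ± 0.18 for Stc2 (0.0192), 0.45 ± 0.09 for Higd1a (3.6e-04) and -0.45 ± 0.07 for Ndrg1 (4.1e-05). The Higd1a difference was 0.30 (adjusted p = 0.0022) without WT library A, and the Ndrg1 difference was -0.30 (0.0024) after removal of the length and GC trend. The Stc2 call was lost without double mutant normoxia library A (adjusted p = 0.142), without WT library A (0.0858) and with no filter on low values (0.0590).

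GLAD cells were higher than WT in Stc1 and Ak4, 2 of 6 genes, where 28.2% of all genes were called higher. They were lower in Stc2 and Ndrg1, another 2, where 27.2% were called lower. Both shares of the 6 genes were near those of all genes. Stc1 differed by 1.37 ± 0.21 (adjusted p = 2.8e-05), Ak4 by 0.35 ± 0.11 (0.0114), Stc2 by -1.37 ± 0.18 (5.5e-06) and Ndrg1 by -0.88 ± 0.07 (1.7e-08). Neither Ankrd37 nor Higd1a passed. The Ak4 call was lost without GLAD normoxia library B (adjusted p = 0.0786) and with only the groups compared (0.131). Without WT library B, Ankrd37 (0.0486) and Higd1a (0.0198) passed as well, so that 4 members were higher, and Ankrd37 also passed with the length and GC trend removed (0.0152). Ndrg1 was thus lower than WT in every mutant, and it was the only member with WT the highest of the 4 normoxia groups. The 3 comparisons share the WT libraries.

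**Figure D3:**
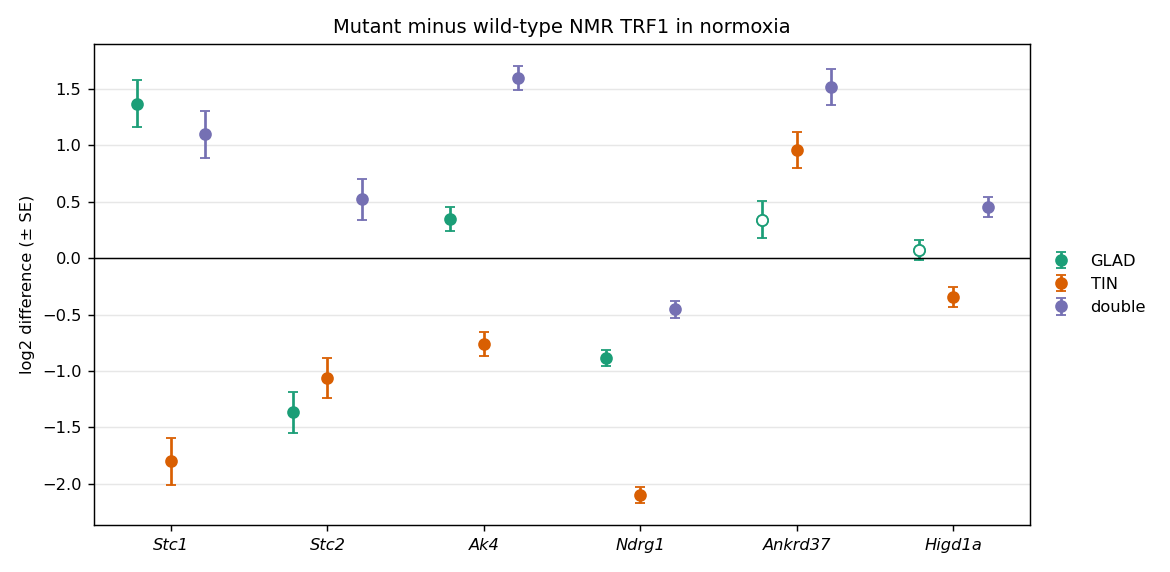
Log2 difference (mutant minus wild-type NMR TRF1, normoxia) of each gene in the GLAD, TIN and double mutants, with standard errors; open points did not pass adjusted p 0.05. Ndrg1 is below 0 in all 3 mutants (-0.88, -2.10 and -0.45), Ankrd37 is above 0 in all 3 with GLAD not passing, and Stc1, Ak4 and Higd1a are below 0 in TIN only.

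Between mutants at the same oxygen level, the TIN mutant was mostly the low one. In normoxia it was lower than GLAD in 4 of 6 genes, where 26.5% of all genes were called lower, and higher in Ankrd37 (0.62 ± 0.16, adjusted p = 0.0041), where 24.3% were called higher. The largest of these was Stc1 (-3.17 ± 0.21, adjusted p = 5.1e-10), at -3.99 with a pseudocount of 0.1 CPM. The Ankrd37 call was lost without GLAD normoxia library A (0.0525) or TIN normoxia library B (0.0628), and Stc2 joined it without TIN normoxia library A (0.0387). In hypoxia TIN was lower than GLAD in 4 of 6 genes, where 34.2% of all genes were called lower: Stc1, Stc2 (-1.11 ± 0.18, adjusted p = 3.6e-05), Ak4 (-0.67 ± 0.11, 3.5e-05) and Ndrg1 (-0.81 ± 0.07, 3.4e-08). Ankrd37 was higher, where 28.8% of all genes were called higher.

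The double mutant was higher than TIN in 6 of 6 genes in normoxia, where 25.1% of all genes were called higher, by 0.56 ± 0.16 for Ankrd37 to 2.90 ± 0.21 for Stc1 (3.70 with a pseudocount of 0.1 CPM). The Ankrd37 call was lost without double mutant normoxia library B (adjusted p = 0.134) or TIN normoxia library A (0.107). In hypoxia it was higher than TIN in 5 of 6 genes, where 33.9% were called higher, and lower in Ankrd37 (-1.18 ± 0.16, adjusted p = 5.9e-06), where 30.1% were called lower. Of those 5, Higd1a (0.24 ± 0.09, adjusted p = 0.0263) was lost without any of the 4 libraries compared (0.0547 to 0.148), with no filter (0.0755) and on the deposited CPM with no further scaling (0.0799). Against GLAD the double mutant was higher in 5 of 6 genes in normoxia, where 18.5% were called higher, with Stc1 the gene not called. In hypoxia 2 of 6 were called, Ndrg1 (0.26 ± 0.07, adjusted p = 0.0077) and Ankrd37 (0.63 ± 0.16, 0.0043), both higher, where 42.7% of all genes were called either way. The Ndrg1 call was lost without GLAD hypoxia library A (0.0787), without double mutant hypoxia library A (0.121) and with only the groups compared (0.0924), and the Ankrd37 call without GLAD hypoxia library B (0.0577).

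A list of 30 other HIF-response genes, all of which passed the filter, gave the setting for the 6. It too was chosen with earlier results of these data known. Of the 30, 27 rose in GLAD, 28 in TIN and 29 in double mutant cells, against 22.9%, 26.9% and 26.2% of all genes, and none fell. The median log2 change of the list was 2.18 in GLAD, 1.72 in TIN and 2.13 in double mutant cells, below the medians of the 6 genes in each mutant. Over the mean of the 3 mutants the largest changes were those of Car9 (4.35 ± 0.05), which encodes the cell-surface carbonic anhydrase IX, and Ero1a (3.91 ± 0.07), an oxidase of the endoplasmic reticulum listed as Ero1l in the table. Next came Adm (3.32 ± 0.07), the vasodilator adrenomedullin, and Egln1 (3.28 ± 0.05), the oxygen-sensing prolyl hydroxylase PHD2. The smallest were Narf (0.48), Angptl4 (0.41), Cited2 (0.37) and Pfkfb4 (0.12, adjusted p = 0.183). Stc2, at 0.60, lay just above these 4. Between TIN and GLAD the list was called higher for 6 genes (16.8% of all genes) and lower for 12 (17.1%), with a median difference of -0.14, while the 6 genes had a median difference of 0.42. In normoxia, against WT, 15 of the 30 were lower and 6 higher in TIN, where 30.5% of all genes were called lower and 29.7% higher. In double mutant cells 3 were lower and 17 higher, beside 27.5% and 29.3% of all genes. In GLAD 7 were lower and 11 higher, beside 27.2% and 28.2%, so that the share of the list called lower was near that of all genes.

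**Figure D4:**
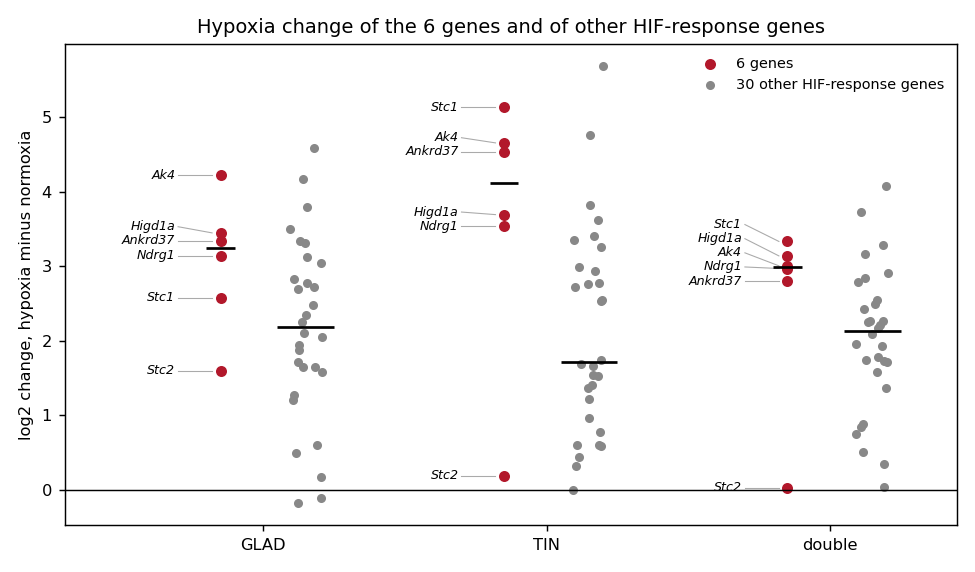
Log2 change (hypoxia minus normoxia) in each mutant for the 6 genes (red, named) and for 30 other HIF-response genes (grey); short lines are medians of 3.24, 4.12 and 2.99 for the 6 genes and 2.18, 1.72 and 2.13 for the others. Stc2 lies below the other 5 genes in each mutant.

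Relatives of the members changed in both directions. Ak1, Ak3 and Ak5, other members of the adenylate kinase family, fell over the mean of the 3 mutants (-0.75, -0.65 and -0.47), Ak6 (0.01) was not called, and Ak7, Ak8 and Ak9 did not pass the filter. Higd2a, the relative of Higd1a that passed the filter, fell by 0.19 ± 0.07 on the log2 scale (adjusted p = 0.0214), and Higd1b and Higd1c did not pass the filter. In the NDRG family, Ndrg2 averaged 56.3 ± 2.48, 43.6 ± 0.07 and 81.5 ± 0.35 scaled CPM in GLAD, TIN and double mutant hypoxia, against 4.14 ± 0.30, 3.63 ± 0.28 and 8.34 ± 0.53 in the matching normoxia groups (SD, n = 2 each). It rose by 3.42 ± 0.07, a change close to that of Ndrg1 (3.22 ± 0.04), though per kilobase its hypoxia level was 12.8 to 24.0 scaled CPM per kb. Ndrg4 rose by 0.88 and Ndrg3 fell by 0.57. Ankrd1, an ankyrin-repeat cofactor known from muscle, rose by 1.58, Ankrd23 was not called (0.25) and Ankrd2 did not pass the filter.

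The stanniocalcins are known to block PAPP-A, a protease that frees insulin-like growth factor by cutting IGFBP4. Pappa fell in hypoxia over the mean of the 3 mutants (-1.15 ± 0.13), by 1.09 in GLAD, 1.46 in TIN and 0.89 in double mutant cells. Igfbp4 rose in the mean by 0.45 ± 0.04, with 0.43 in GLAD, 0.80 in TIN and 0.13 in double mutant cells (adjusted p = 0.140 in the last). Pappa2, a related protease, and Igfbp5, its substrate, were not called in the mean (-0.16 and -0.01) or in GLAD (0.09 and 0.50) and TIN (-0.02 and 0.34). Both fell in double mutant cells, Pappa2 by 0.54 ± 0.22 (adjusted p = 0.0474) and Igfbp5 by 0.88 ± 0.25 (0.0058), on the log2 scale. The stanniocalcin with the large change, Stc1, and Pappa thus moved in opposite directions in each mutant, while Stc2 did so in GLAD.

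**Figure D5:**
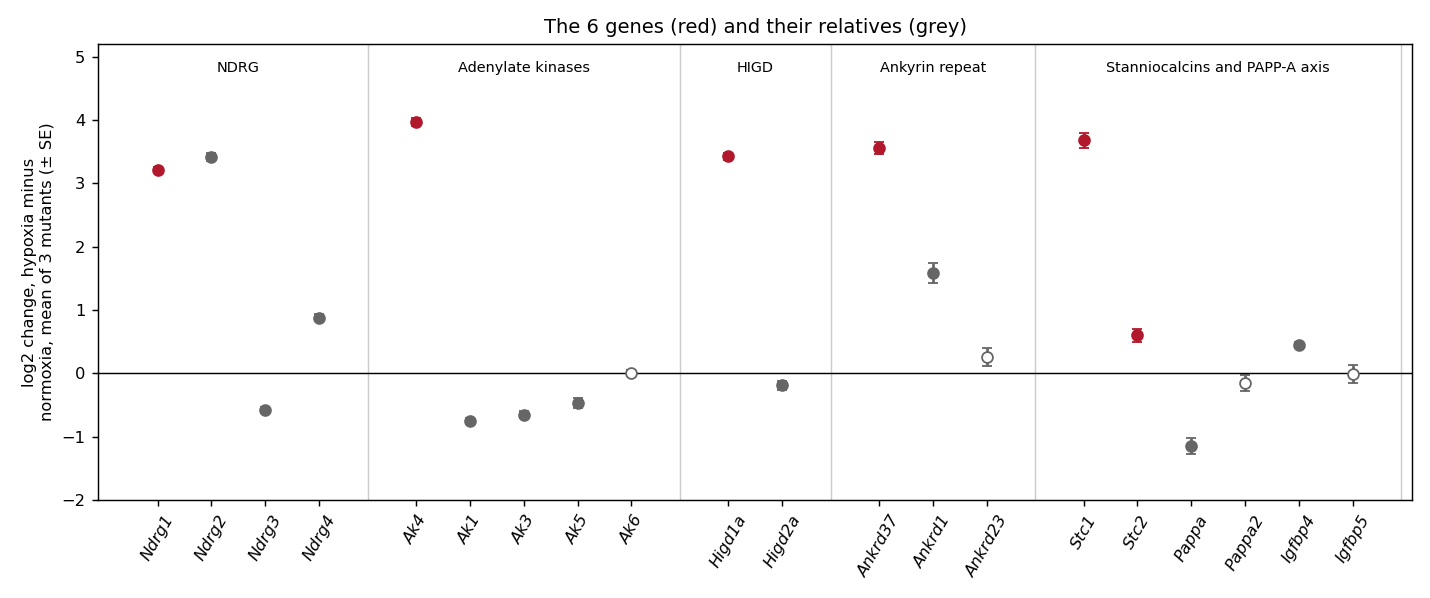
Mean log2 change over the 3 mutants (hypoxia minus normoxia, with standard error) of the 6 genes (red) and of listed relatives and PAPP-A axis genes that passed the filter (grey), by family; open points did not pass adjusted p 0.05. Ndrg2 at 3.42 is the relative that stands beside a member; the other relatives lie between -1.15 and 1.58.

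Across the 14 libraries, 5 of the members varied together: Pearson's r of log2 levels was 0.79 to 0.98 between any pair of Stc1, Ak4, Ndrg1, Ankrd37 and Higd1a, and 0.23 to 0.55 between Stc2 and any of them. These are descriptions of 14 libraries in 7 groups that share the oxygen contrast. Among 12994 candidate genes whose mean reached 5 CPM, the patterns most like Stc1 were those of Adm (r = 0.98), Car9 (0.98) and Txnip (0.97). For Ak4 they were Pgm1, Bnip3 and Pdk1 (each 0.99), and for Higd1a Gpr35, Aire and Shb (each 0.99). Loxl2 and Mpp2 (each 0.99) were most like Ndrg1 after its antisense gene Gm17035, and Ldha and Aldoa (each 0.98) most like Ankrd37 after its overlapping gene Lrp2bp. Stc2 was most like Rundc1 (0.97), Agap2 (0.93) and Ppp2r5a (0.91). Of those 3, Agap2 rose in the mean of the mutants (0.47 ± 0.06), while Rundc1 (0.13, adjusted p = 0.0513) and Ppp2r5a (0.05, 0.313) were not called.

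Estimated depth was 11923504 to 15031691 reads per library, so that 1 read was worth 0.0665 to 0.0839 CPM. Both libraries of each group correlated at 0.991 or more. The WT pair was the least alike: the SD of its log2 difference over all genes tested was 0.339, against 0.207 to 0.268 in the mutant groups. The fit used a spread shared by all groups, so p-values against WT may be too small. Fibroblast markers were present, with 9 of 10 passing the filter, while Thy1 was at 0 to 0.204 scaled CPM. Col1a1 had the highest value in any library (6003). Its mean was above that of Vim in GLAD and WT cells and below it in TIN and double mutant cells, at each oxygen level. In TIN cells Col1a1 averaged 904 in hypoxia and 828 in normoxia, against 1919 and 1968 for Vim. The summed level of the 10 fibroblast markers was 4351 to 8001 scaled CPM in hypoxia and 4482 to 13300 in normoxia. In the 3 mutants alone the normoxia sum was 4482 to 8248. Of the 9 fibroblast markers, 6 fell in hypoxia over the mean of the 3 mutants (35.8% of all genes were called lower), with a median log2 change of -0.41, and 7 fell in double mutant cells (29.9%), with a median of -0.92. Against WT in normoxia, 4 were lower and 3 higher in GLAD (27.2% and 28.2% of all genes). In TIN 7 were lower and 2 higher (30.5% and 29.7%), and in double mutant cells 4 and 4 (27.5% and 29.3%). Dcn averaged 13.2 scaled CPM in WT normoxia and 34.6 to 1327 in mutant normoxia. Col1a1 averaged 5737 in WT normoxia and 828 to 2446 in mutant normoxia. Of the epithelial markers, 2 of 7 passed the filter. The sum of all 7 was 18.0 to 62.6 scaled CPM in hypoxia, most of it Krt19, and 1.66 to 8.97 in normoxia. Krt19 reached 60.6 in TIN hypoxia and was at 0.493 and 0.101 in double mutant normoxia. No other epithelial marker exceeded 1.63 in any library, and Epcam and Cdh1 stayed at or below 0.497. Myeloid markers, 3 of 5 passing, summed to 57.1 to 71.0 in hypoxia and 23.4 to 45.0 in normoxia. Over all libraries Cd68 ran from 6.84 to 45.25 and Csf1r from 15.4 to 28.6, while Ptprc was at most 0.102. Endothelial (3 of 5) and muscle (2 of 5) markers summed to 5.57 to 16.9 and 2.62 to 6.31 in hypoxia and to 2.37 to 15.5 and 1.07 to 2.28 in normoxia. The part of these markers in the changes of the 6 genes was not tested.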

How the data were processed

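Bulk RNA sequencing of 14 libraries in 7 groups was used, grouped by their titles. The deposited values are CPM, read counts that the authors scaled to a common total per library; STAR alignment and HTSeq counting on GRCm38.p4 (mm10) came first, per the submitters' processing notes. Program versions, strand setting and annotation release are not given in the sources used here. The number of unused columns was 0.

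CPM were scaled by TMM factors (30% of log ratios and 5% of levels trimmed), a gene was kept if 2 or more libraries reached 1 CPM (16157 of the 32273 genes above 0), and log2(scaled CPM + 0.5) was fitted with limma 3.58.1 in R 4.3.3 as 7 group means over all 14 libraries, with 7 residual and 10.7 prior degrees of freedom. P-values were adjusted by Benjamini-Hochberg over all genes within each of 16 comparisons, and within each of 21 pairwise contrasts used for the order of levels. Because the unit is CPM, the planned test on counts was replaced by this one. The model was also run on simulated data with the same spread and depth in all libraries, drawn independently. That run does not cover an unequal spread between groups, or A and B as repeats of 1 culture. Library letters were not used to pair the libraries in this fit. Python 3.11.15 and scipy 1.17.1 gave the exact interval of the read ratio.

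Reads were estimated from CPM steps: values under 200 CPM fitted whole reads at 99.7% or more in each library, against 59.6% to 75.1% by chance. A count of 0 allows 3 reads, or 0.200 to 0.252 CPM; floors and intervals cover counting error only.

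The 6 genes are described in full; other genes named are the 4 largest and 4 smallest changes of the HIF list, listed relatives (1 of which is not reported here), the 3 genes most like each member, overlapping genes and markers. Members and lists were chosen with earlier results of these data known. Alternatives were other scalings, pseudocounts, no filter, only the groups compared, a replicate block, length and GC trends, and each library left out.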

Additional observations from a re-analysis of the deposited data

Results flagged for a closer look

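The hypoxia response differed between mutants by a test of the difference itself (the interaction term of the limma fit, adjusted p under 0.05) in 12 cases. In TIN minus GLAD these were Stc1 (2.56), Ankrd37 (1.20), Ak4 (0.43), Ndrg1 (0.40) and Stc2 (-1.42), all as log2 differences of the change. In double minus GLAD they were Ak4 (-1.22) and Stc2 (-1.58). In double minus TIN they were Stc1 (-1.80), Ankrd37 (-1.74), Ak4 (-1.65), Ndrg1 (-0.57) and Higd1a (-0.55). Groups of 2 libraries were not searched for outlying samples.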

How the results depend on the processing

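Each result was recomputed under 22 alternatives. Of the single-gene values, 2048 kept their side of the threshold, 36 no longer passed and 28 newly passed; 8 values of 5 results that passed in neither fit changed sign, and 0 called values did; of the counts of genes called, 689 stayed within 1.5 times and 15 did not. With only the groups compared, 1 gene was higher in GLAD against WT and 1 in the double minus GLAD response; with a pseudocount of 1 CPM, 1 was again higher in the double minus GLAD response. Leaving out each library in turn gave 1 to 4 genes higher in GLAD against WT, 0 to 1 in double minus GLAD, 0 to 2 in TIN against GLAD at normoxia and 1 to 3 in double against GLAD at hypoxia. Where single calls changed, the value stands beside the result, and the cause was not tested.

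Library letters A and B were not treated as pairs in the main fit. The 21 correlations of deviations from group means between groups ran from -0.0966 to 0.16, with 3 above 0.1. A replicate block raised the number of genes called in each of the 16 comparisons, as from 5480 to 5663 in TIN minus GLAD. With the replicate block, Stc1 in double against GLAD hypoxia passed (0.49, adjusted p = 0.0368), and no count of called members moved by over 1.5 times. A lone library left in a group was assumed to vary like the other groups. The 2 planned tests on whole reads were not run, since the reads could not be recovered for all values. Depth limits Stc1 in TIN normoxia.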
